A study of Mus musculus with 48 samples.

Results

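The 24 h rhythm of gene expression was described in the epidermis of aged mice (80 to 90 weeks old). All 24 aged libraries of the series were used, of 48 libraries in all, and they were fitted alone. The libraries came from epidermal cell suspensions collected at 6 Zeitgeber times (ZT; by convention, time counted from lights on), every 4 h between ZT0 and ZT20, with 4 libraries per time. The other 24 libraries came from adult mice (18 to 25 weeks old) at the same times and serve only for comparison. No treatment or genotype is given for either age, while strain, sex and lighting schedule are left unstated in the labels. The labels do not say that replicates were separate animals, so p-values measure the spread between these samples, which may be technical. Total counts of the aged libraries ran from 40761084 to 48785385.

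The circadian clock of mammals is a loop of transcription that runs in nearly every cell. BMAL1, the product of Arntl, pairs with CLOCK or NPAS2 and switches on the Per and Cry genes through E-box sequences, and the PER and CRY proteins then shut their own activators off. A second loop joins the REV-ERB repressors (Nr1d1, Nr1d2) and the ROR activators at RORE sequences of Arntl, and another branch sends timing out through D-box factors such as DBP. In skin, the clock is known to time DNA replication in epidermal stem cells, and it receives the daily glucocorticoid signal of the adrenal gland. The series title names BMAL1 and YAP, the effector of the Hippo pathway, which senses cell density and tension.

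A 24 h cosine was tested in each of 17716 genes with edgeR's quasi-likelihood F test, and a gene was called rhythmic when its p, adjusted by Benjamini and Hochberg over all of them, was under 0.05. This called 907 genes, or 5.12% of those tested. Amplitude is the log2 distance from the fitted mean to the fitted peak, so a value of 1 means a 4-fold range between trough and peak. The median amplitude was 0.275 among the called genes and 0.0964 over all genes tested. An amplitude of at least 0.5 was reached by 190 called genes and one of at least 1 by 33. The median standard error (SE) of a called peak was 0.823 h.

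Peaks were spread around the day, with 451 called genes peaking between ZT0 and ZT12 and 456 between ZT12 and ZT24. In windows of 4 h centred on the sampled times, 165 genes peaked around ZT0 (0.931% of those tested), 121 around ZT4 (0.683%) and 145 around ZT8 (0.818%). Around ZT12 there were 176 (0.993%), around ZT16 173 (0.977%) and around ZT20 127 (0.717%). The fullest single hours were ZT0 to ZT1 and ZT12 to ZT13, with 56 genes each, and the emptiest was ZT19 to ZT20 with 19. With 1 library left out at a time the total ran from 635 to 998. Without the 4 ZT0 libraries it was 254 and without the 4 ZT8 libraries 446. Single ZT0, ZT8 and ZT20 libraries also moved window counts by over 1.5 times: ZT0 replicates 1, 3 and 4 in the ZT0 window (as low as 93), ZT8 replicate 1 in the ZT8 window (95), ZT0 replicates 1 and 3 in the ZT16 window (as low as 109), and in the ZT20 window these 4 with ZT8 replicate 4 and ZT20 replicates 1, 2 and 3 (as low as 68).

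**Figure D1:**
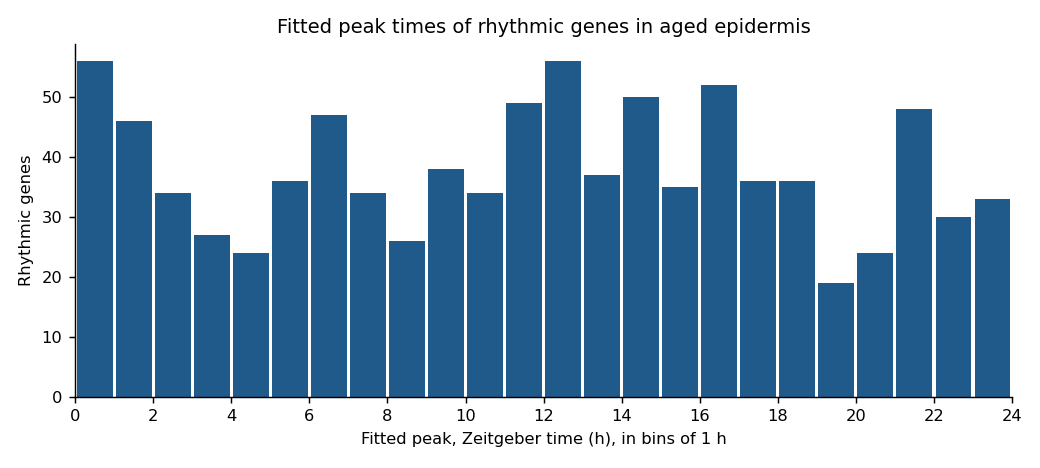
Number of rhythmic genes in aged epidermis (y axis) by fitted peak in bins of 1 h of Zeitgeber time (x axis), 907 genes in all. The bars are highest at ZT0 to ZT1 and ZT12 to ZT13 (56 genes each) and lowest at ZT19 to ZT20 (19 genes).

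The clock genes Per2 and Dbp had the largest amplitudes of all called genes. In several clock genes every library at a high time lay above every library at a low time. The finer order of their peaks comes from the fitted cosines. Of 21 clock genes examined, 17 were called rhythmic in aged epidermis. Arntl (chr7:113178471-113314126, GRCm38), the gene of BMAL1, had 72.5, 73.6, 73.4 and 77.0 CPM (read count relative to library size) in the 4 libraries at ZT0. At ZT12 it had 14.9, 17.7, 18.3 and 18.3 CPM. The lowest library at ZT0 thus lay far above the highest at ZT12. Arntl peaked at ZT23.6 (SE 0.17 h) with an amplitude of 1.06 (SE 0.048; edgeR adjusted p = 1.28e-12). Npas2, a partner of BMAL1 related to CLOCK, had 26.2, 26.0, 25.1 and 25.7 CPM at ZT0. At ZT12 it stood at 3.39, 3.07, 3.40 and 2.73 CPM. Its amplitude was 1.65 with a peak at ZT23.8, the same part of the day as Arntl. Clock itself moved far less, with an amplitude of 0.22 and a peak at ZT23.2. The BMAL1 paralogue Arntl2 did not pass (amplitude 0.08, edgeR adjusted p = 0.462).

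The REV-ERB gene Nr1d1, a repressor of Arntl, had the earliest peak after ZT0 among the called clock genes. Nr1d1 had 143, 171, 146 and 133 CPM at ZT8, against 21.2, 22.03, 13.4 and 11.2 CPM at ZT20. Every ZT8 library was far above every ZT20 library. It peaked at ZT8.7 (SE 0.2 h) with an amplitude of 1.57 (edgeR adjusted p = 1.52e-11). Its paralogue Nr1d2 followed at ZT11.3 with an amplitude of 0.96. The ROR activator genes Rora and Rorb did not pass (edgeR adjusted p = 0.153 and 0.721).

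Repressors of BMAL1 peaked around ZT12 and after. Per2 (chr1:91415977-91459351), which had the largest amplitude of the 21 genes, had 6.13, 2.38, 5.57 and 2.82 CPM at ZT4. It had 75.8, 66.9, 103 and 67.2 CPM at ZT12, far above every ZT4 library. Its amplitude was 2.22 (SE 0.23) and its peak at ZT14.0. The times of Per2 also departed from a cosine shape (edgeR adjusted p = 0.0196 for the departure). Bhlhe41 (DEC2) peaked at ZT11.6, Cry2 at ZT12.2, Ciart (CHRONO) at ZT12.4, Per3 at ZT12.7 and Per1 at ZT14.0, with amplitudes of 1.19, 0.52, 1.73, 1.54 and 0.90. Cry1, the late repressor of the loop, was the exception in time. It had 33.2, 32.4, 36.9 and 39.6 CPM at ZT20 and 9.39, 9.32, 9.05 and 11.5 CPM at ZT4, and peaked at ZT18.2 (SE 0.19 h) with an amplitude of 1.00. Bhlhe40 (DEC1) did not pass, at an amplitude of 0.33 and an edgeR adjusted p of 0.406.

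The 4 output factors that act at D-boxes were all called by the cosine test. Dbp had 111, 122, 104 and 90.3 CPM at ZT8 and 5.32, 6.24, 6.48 and 5.75 CPM at ZT0, a gap that no library bridged. Its amplitude of 2.07 was second only to Per2 among clock genes, and its peak lay at ZT11.0. Tef and Hlf, activators of the same family, peaked at ZT12.7 and ZT12.9 with amplitudes of 1.15 and 0.37. Nfil3, which represses at D-boxes, peaked on the other side of the day, at ZT21.1 with an amplitude of 0.64 (edgeR adjusted p = 0.0427). The call of Nfil3 was lost in 15 of 24 fits that left out 1 library. Its libraries overlapped between times, from 5.48, 17.9, 7.04 and 8.53 CPM at ZT16 to 18.6, 13.1, 24.7 and 18.8 CPM at ZT20.

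**Figure D2:**
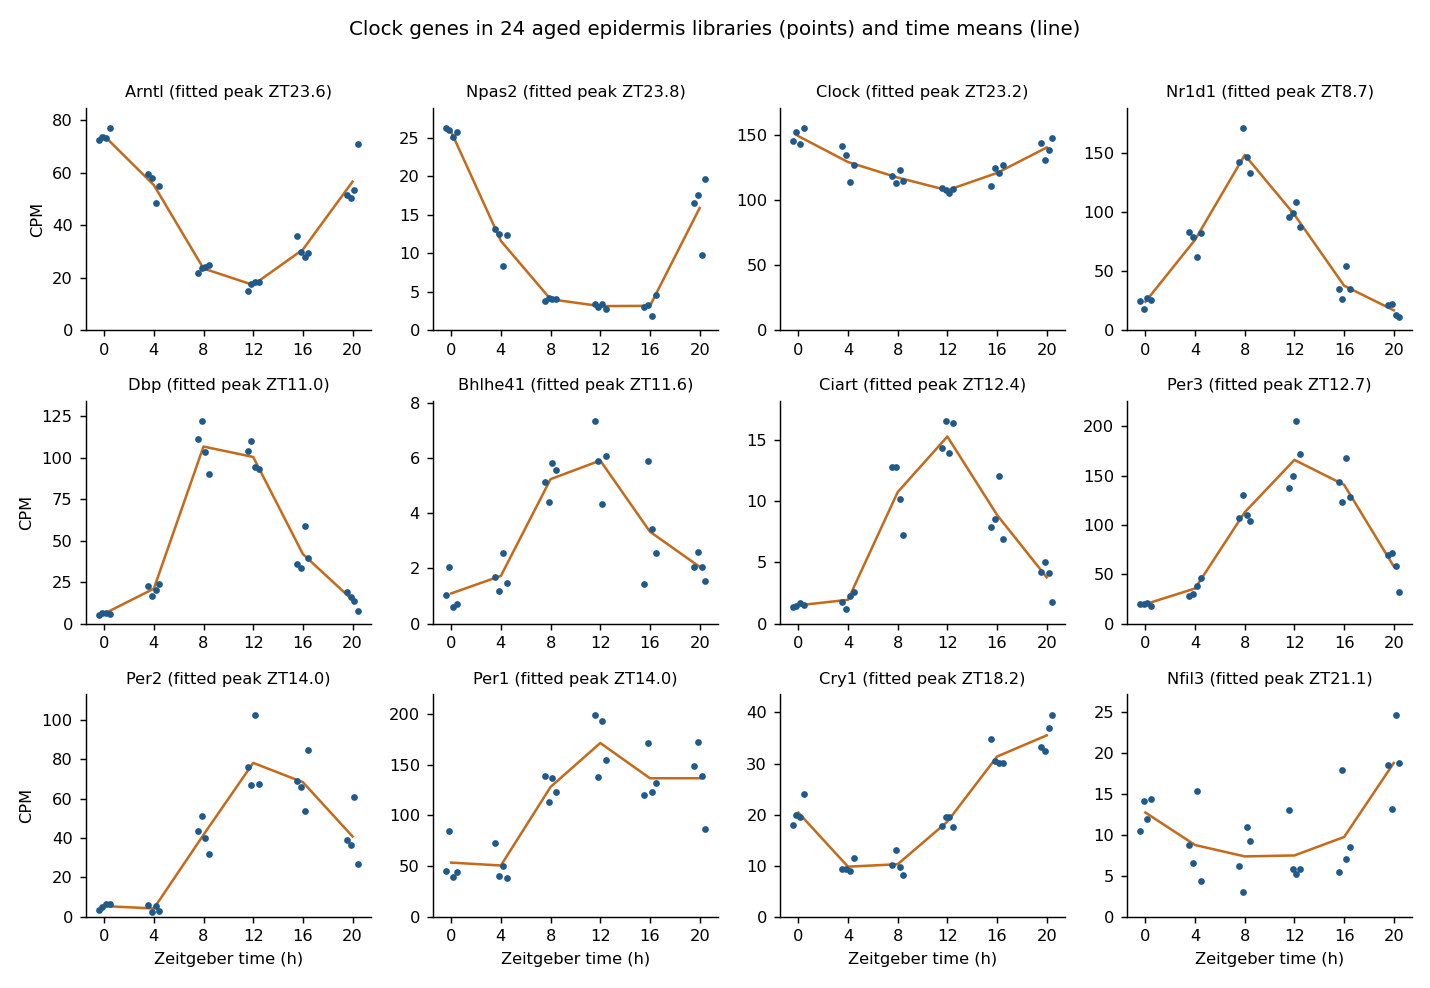
Expression in CPM (y axis, from 0) of 12 clock genes at 6 Zeitgeber times (x axis, h) in aged epidermis; points are the 4 libraries per time, slightly offset, and the line joins the time means. Fitted peaks move from ZT8.7 in Nr1d1 through ZT14.0 in Per2 and ZT18.2 in Cry1 to ZT23.8 in Npas2.

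Promoter sequences are shown for clock genes because the clock factors act through known short sequences. They are RefSeq promoters of build GRCm38.p6, from 250 bases before to 50 after the start, and 15 of the 17 called clock genes had one. Searched on both strands were the E-box CACGTG, the RORE core TAGGTCA and a D-box written TTATGNAA, none of which can match the same bases in full as another. The palindromic D-box TTACGTAA was in 0.171% of all promoters and in 0 of 674 of called genes. The E-box was held by 5 of the 15 (Ciart, Bhlhe41, Cry1, Per1 and Tef), the RORE core by Nfil3 and Arntl, and TTATGNAA by Per1 and Per3. All 5 with the E-box peaked between ZT11.6 and ZT18.2. Other called clock genes whose promoters held no E-box, Per3 among them, peaked within the same hours. Those with the RORE core peaked at ZT21.1 and ZT23.6. Clock and Npas2, whose promoters did not hold it, also peaked around ZT0. A link between motif and peak time was not tested. The printed examples show each kind, with matches to these motifs in capitals, 5′ to 3′ along the gene; the match in Nfil3 lies on the opposite strand, and Arntl is shown at the one of its starts that held a match.
Ciart (chr3:95882179-95882478, minus strand): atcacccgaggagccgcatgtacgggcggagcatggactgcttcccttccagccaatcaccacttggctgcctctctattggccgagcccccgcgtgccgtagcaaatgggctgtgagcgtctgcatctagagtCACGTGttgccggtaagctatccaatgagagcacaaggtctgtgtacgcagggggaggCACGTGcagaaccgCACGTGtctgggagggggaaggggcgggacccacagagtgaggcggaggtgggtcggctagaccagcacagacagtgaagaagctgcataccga
Bhlhe41 (chr6:145865371-145865670, minus strand): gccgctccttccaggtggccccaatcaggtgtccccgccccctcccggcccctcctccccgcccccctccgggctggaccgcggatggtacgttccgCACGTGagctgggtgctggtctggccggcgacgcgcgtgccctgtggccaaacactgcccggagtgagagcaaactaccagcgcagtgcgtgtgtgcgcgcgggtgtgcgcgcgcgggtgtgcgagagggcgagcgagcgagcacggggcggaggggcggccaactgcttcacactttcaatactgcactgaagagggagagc
Cry1 (chr10:85185005-85185304, minus strand): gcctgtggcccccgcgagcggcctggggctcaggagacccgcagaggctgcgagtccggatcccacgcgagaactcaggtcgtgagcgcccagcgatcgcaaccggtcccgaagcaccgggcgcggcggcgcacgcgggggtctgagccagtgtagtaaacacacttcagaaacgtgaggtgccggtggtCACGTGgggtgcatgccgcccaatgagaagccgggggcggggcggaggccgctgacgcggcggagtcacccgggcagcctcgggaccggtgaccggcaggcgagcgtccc
Per1 (chr11:69098699-69098998, plus strand): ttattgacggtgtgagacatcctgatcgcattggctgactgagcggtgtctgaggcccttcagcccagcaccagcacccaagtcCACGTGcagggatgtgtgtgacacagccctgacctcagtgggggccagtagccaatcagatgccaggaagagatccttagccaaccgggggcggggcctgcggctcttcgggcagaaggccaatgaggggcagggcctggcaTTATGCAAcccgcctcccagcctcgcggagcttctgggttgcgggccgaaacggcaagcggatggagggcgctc
Per3 (chr4:151044616-151044915, minus strand): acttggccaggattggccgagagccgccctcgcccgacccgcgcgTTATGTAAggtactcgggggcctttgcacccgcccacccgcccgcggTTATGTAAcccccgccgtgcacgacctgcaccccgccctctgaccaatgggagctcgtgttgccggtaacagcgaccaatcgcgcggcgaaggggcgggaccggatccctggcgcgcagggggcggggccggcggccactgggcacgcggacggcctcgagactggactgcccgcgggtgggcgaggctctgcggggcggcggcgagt
Nfil3 (chr13:52980990-52981289, minus strand): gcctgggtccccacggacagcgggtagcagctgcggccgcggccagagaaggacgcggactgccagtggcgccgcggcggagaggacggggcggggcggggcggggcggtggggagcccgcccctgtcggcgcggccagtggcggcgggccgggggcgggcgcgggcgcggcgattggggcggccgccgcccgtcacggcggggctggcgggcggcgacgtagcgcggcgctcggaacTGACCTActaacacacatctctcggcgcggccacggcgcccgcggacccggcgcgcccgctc
Arntl (chr7:113207261-113207560, plus strand): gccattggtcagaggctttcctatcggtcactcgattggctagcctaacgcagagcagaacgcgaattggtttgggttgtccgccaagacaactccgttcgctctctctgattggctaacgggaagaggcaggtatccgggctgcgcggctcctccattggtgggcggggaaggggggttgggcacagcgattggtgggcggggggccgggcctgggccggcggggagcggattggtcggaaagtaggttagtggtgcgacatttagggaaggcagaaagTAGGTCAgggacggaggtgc

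Over all 12847 tested genes with a promoter, 10.8% held CACGTG. Among called genes the share was 18.6% of 102 that peaked around ZT8, 17.3% of 127 around ZT12 and 15.1% of 126 around ZT16. It was 8.33% of 96 around ZT20, 8.46% of 130 around ZT0 and 4.3% of 93 around ZT4. The RORE core TAGGTCA was in 2.44% of all promoters. By window from ZT0 to ZT20 its shares were 3.85%, 1.08%, 2.94%, 0.787%, 3.17% and 2.08%, with 5 genes around ZT0. TTATGNAA was in 2.86% of all promoters. Its shares by window were 3.08%, 3.23%, 0.98%, 4.72%, 3.17% and 7.29%, with 7 genes around ZT20. These shares describe letters in a short window, and no factor's binding was measured.

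Cell division genes formed the next layer, with DNA replication, histones and mitosis at different hours. Of 31 S phase and DNA replication genes, 21 were called (all genes tested: 5.12%), every one with a peak between ZT10.5 and ZT13.9; peaks from ZT10 to ZT16 were called in 1.47% of all genes tested. The median amplitude of the 31 was 0.392, against 0.0964 over all genes. The count was 7 without the ZT0 libraries and 9 without the ZT12 libraries. Mcm2, a subunit of the replicative helicase, had 43.1, 46.4, 37.6 and 35.9 CPM at ZT12 and 15.5, 17.9, 14.4 and 12.7 CPM at ZT0. The 2 sets of libraries did not overlap. Mcm2 peaked at ZT11.4 (SE 0.56 h) with an amplitude of 0.71 (edgeR adjusted p = 0.000549). Orc1, which marks replication origins, reached 0.83 at ZT12.3, and the loading factor Cdc6 0.62 at ZT12.6. Prim1, which makes the primers, had the smallest adjusted p of the list (1.44e-05, edgeR) at a smaller amplitude of 0.32. E2f1, a transcription factor of S phase entry, peaked at ZT11.7, and Gins2, a helicase subunit, at ZT10.6. The fork protection gene Timeless (0.73 at ZT12.0), the remodeller Hells (0.70 at ZT12.0) and the mitochondrial folate enzyme Mthfd1l (1.12 at ZT13.0) had, with Mcm2 and Orc1, the largest amplitudes of the ZT12 window among genes outside the clock lists with a mean log2 CPM of at least 1. Of 22 homologous recombination and Fanconi genes 4 were called, Fancm, Palb2, Rad54l and Exo1, all between ZT12.7 and ZT13.1. That count was 1 without the ZT0 or the ZT12 libraries, 2 without the ZT8 libraries and 2 at an adjusted p under 0.01, and it was 7 without ZT16 replicate 3 and 9 without the ZT16 libraries. In such bulk libraries, fewer cells in a phase and less RNA per cell cannot be told apart.

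Genes of G2 and mitosis peaked at the opposite time, around ZT0. Of 25 such genes 16 were called, with peaks from ZT22.8 to ZT2.0, while 1.28% of all genes tested were called with a peak from ZT22 to ZT4. Cdc20, the activator of the anaphase-promoting complex, had 21.7, 16.7, 18.5 and 19.4 CPM at ZT0 and 3.55, 7.51, 4.05 and 9.18 CPM at ZT16. All ZT0 libraries were above all ZT16 libraries. Its amplitude was 0.68 with a peak at ZT2.0 (edgeR adjusted p = 0.00647). Prc1, which bundles the central spindle, peaked at ZT23.3, the spindle protein Nusap1 at ZT0.45 and the kinetochore protein Cenpf at ZT1.4, with amplitudes of 0.40, 0.62 and 0.47. The spindle pole gene Aspm was among the largest amplitudes of the ZT0 window (0.85 at ZT1.7), and the centromeric histone gene Cenpa and the DNA helicase Pif1 of the ZT4 window (0.64 at ZT2.5, 0.77 at ZT2.5). The ZT0 libraries decided the mitotic count: it was 0 without them, 8 without ZT0 replicate 4 alone and 9 without ZT0 replicate 1 alone. It was 10 without the ZT8 libraries and 4 at an adjusted p under 0.01.

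Replication-dependent histone genes lay between these groups in time; the set was added after its values were seen. Of 60 tested, 28 were called (46.7%; all genes tested: 5.12%), with peaks from ZT20.2 to ZT0.031 and a mean at ZT21.4. H3c2, a histone H3 gene, had 17.7, 15, 24.04 and 18.1 CPM at ZT20 and 9.78, 4.51, 5.60 and 9.05 CPM at ZT8, without overlap. Its amplitude was 0.64, and its call (edgeR adjusted p = 0.042) was lost in 16 of 24 fits that left out 1 library. Since the copies are almost the same in sequence and can share reads, it is uncertain which ones moved. Single libraries moved this count: it was 9 to 16 without any 1 of ZT0 replicates 1, 3 and 4, ZT8 replicates 2, 3 and 4, ZT12 replicate 3 and the 4 ZT20 libraries, and 44 and 45 without ZT4 replicate 3 and ZT16 replicate 3. It was 14 with the replicate number as a block, 1 without the ZT0, the ZT8 or the ZT20 libraries, and 49 without the ZT16 libraries.

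**Figure D3:**
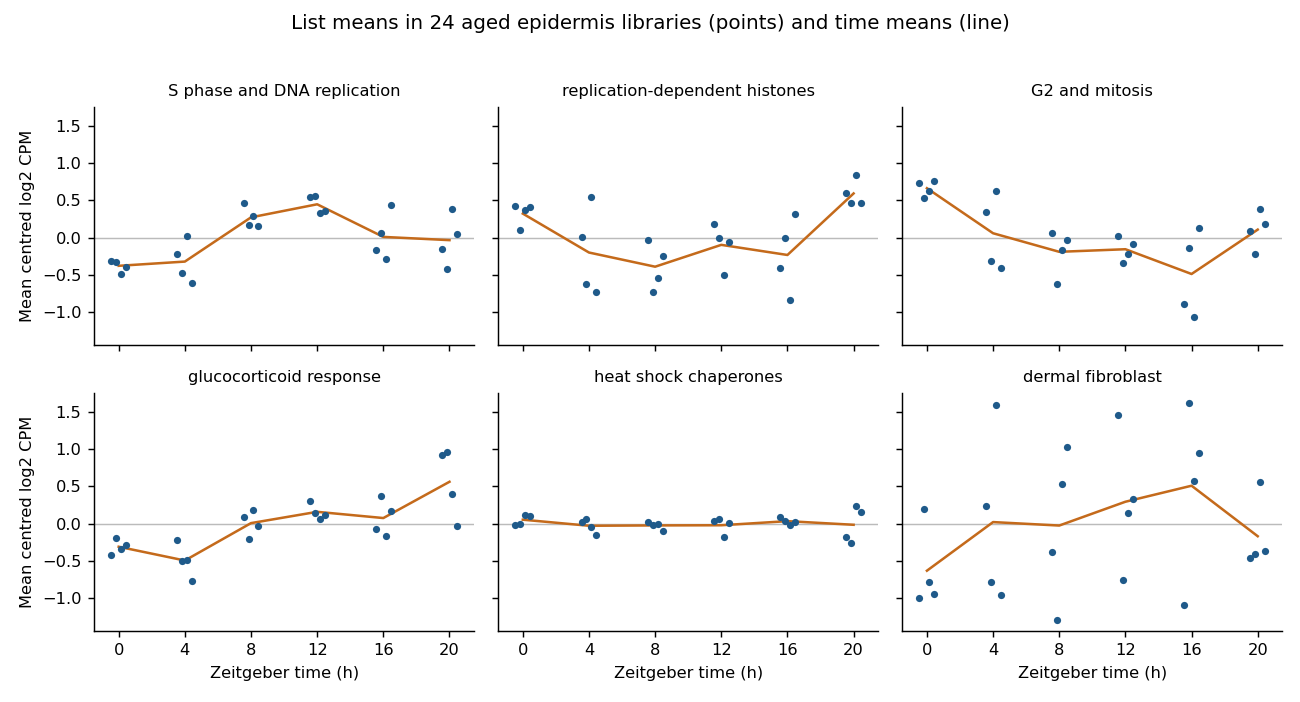
Mean centred log2 CPM of 6 gene lists (y axis, all tested members, called or not) at 6 Zeitgeber times (x axis, h) in aged epidermis; points are libraries and the line joins time means. The S phase list is highest at ZT12, histones at ZT20 and G2 and mitosis at ZT0; at ZT20 the glucocorticoid list spans -0.03 to 0.96.

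Of 19 genes induced by glucocorticoids 6 were called (31.6%; all genes tested: 5.12%), and these 6 peaked from ZT14.0 to ZT17.2. Fkbp5, a co-chaperone of the glucocorticoid receptor, had 95.2, 114, 78.1 and 102 CPM at ZT16 and 178, 216, 59.9 and 30.1 CPM at ZT20. At ZT4 it had 30.3, 18.8, 18.1 and 11.1 CPM. All ZT16 libraries thus lay above all ZT4 libraries, while the ZT20 libraries were split. Fkbp5 had an amplitude of 1.25 and a peak at ZT16.5 (SE 0.64 h; edgeR adjusted p = 0.00223). Tsc22d3 (GILZ), an anti-inflammatory target, had 510.2, 599, 226 and 96.1 CPM at ZT20, the same split, and an amplitude of 1.17 at ZT16.8. The transcription factor Zbtb16 reached 0.87 at ZT16.7. The other called members were Per1, described above, and Sgk1 (0.31 at ZT17.2) and Rgcc (0.36 at ZT14.5), which are named after their values were seen. ZT20 replicates 1 and 2 stood apart from the other libraries in these genes: their list means (centred log2 CPM) were 0.92 and 0.96, while replicates 3 and 4 had 0.40 and -0.03. Without those 2 libraries 7 members were called, Fkbp5 kept an amplitude of 1.07 and its peak came out at ZT14.9, and Tsc22d3 had 0.92 at ZT15.1. Both calls thus held without the 2 libraries, and the fitted peaks came earlier by under 2 h. Without the ZT4 libraries 3 members were called, and without the ZT16 libraries 13.

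ZT20 replicates 1 and 2 also had the highest levels at ZT20 in most other leading genes of the ZT16 and ZT20 windows. In the ZT16 window these were Rasd1 (a dexamethasone-induced Ras protein; 1.22 at ZT16.1), the secreted protein Angptl7 (1.14 at ZT16.3) and glutamine synthetase, Glul. Glul had 573, 693, 197 and 98.7 CPM at ZT20 and 75.9, 76.0, 62.8 and 69.8 CPM at ZT0. Without ZT20 replicates 1 and 2 its amplitude was 0.84 with a peak at ZT13.8, against 1.01 at ZT16.3 with them. In the ZT20 window, the matrix proteoglycan Spock2 had an amplitude of 0.97 at ZT18.4, and 0.595 at ZT17.1 without the 2 libraries. Kbtbd11 (0.76 at ZT18.8) and the protease inhibitor Serpina3f (0.65 at ZT19.3) lost their calls without them. The tubulin-binding Tppp3 ran the other way, with 42.4, 35.5, 74.2 and 71.0 CPM at ZT20; it was called (0.81 at ZT19.9) with and without them.

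The chemokine Cxcl14 and the cytokine Il33 were among the leading genes of the ZT0 and ZT4 windows. Cxcl14, a chemokine made by keratinocytes, had 226, 206, 333 and 249 CPM at ZT0 and 84.5, 91.1, 82.9 and 68.3 CPM at ZT12, with no overlap. It had an amplitude of 0.81 and a peak at ZT0.56 (edgeR adjusted p = 6.05e-05). Il33, an alarmin stored in epithelial nuclei, had 142, 119, 112 and 116 CPM at ZT0 and 40.2, 37.4, 32.5 and 58.1 CPM at ZT16. It peaked at ZT2.2 with an amplitude of 0.58. Ccl27a, which draws T cells to skin, peaked at ZT0.1 with 0.46. These 3 were the called members of 23 cytokines and chemokines (13%; all genes tested: 5.12%), and 1 was called without the ZT0 libraries. Il1b and Tnf did not pass (0.27 and 0.04; edgeR adjusted p = 0.773 and 0.993), and are named after their values were seen. The other leading genes around ZT0 were Ttc9 (0.95 at ZT0.28), the matrix protease Mmp3 (0.93 at ZT1.5) and the semaphorin receptor Plxnd1 (0.75 at ZT0.86). Around ZT4 they were, beside Pif1, Cenpa and Il33, the immune checkpoint gene Vsir (0.55 at ZT2.7) and the actomyosin regulator Limch1 (0.49 at ZT3.9).

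Called fatty acid oxidation genes peaked shortly after ZT0 and called Wnt genes from ZT3.2 to ZT7.7. Of 19 fatty acid oxidation and fasting genes 3 were called (15.8%; all genes tested: 5.12%): the dehydrogenase Acadl (0.24 at ZT0.72), the coactivator Ppargc1a (0.46 at ZT0.89) and Hadha of the trifunctional enzyme (0.15 at ZT2.1). The count was 1 with an amplitude of at least 0.25, and 5 without ZT12 replicate 2 or without ZT20 replicates 1 and 2. Of 24 Wnt pathway genes 4 were called (16.7%); 2 were at an adjusted p under 0.01, and a fit with a replicate block called 2. The ligand Wnt3a had 21.1, 22.8, 21.9 and 16.8 CPM at ZT8 and 7.10, 6.24, 5.27 and 12.6 CPM at ZT16, without overlap, with an amplitude of 0.50 at ZT7.0 (edgeR adjusted p = 0.0266). Wnt10b, a ligand too, peaked at ZT7.0 with 0.42, and the receptor-removing ligases Rnf43 and Znrf3 at ZT7.7 and ZT3.2 with 0.16 and 0.15. Wnt3a lost its call without ZT8 replicate 1, 2 or 3 or ZT20 replicate 2, and no Wnt member passed without the 4 ZT8 libraries. Znrf3 lost its call in 5 of 24 fits that left out 1 library. Around ZT8 the leading genes outside the lists were Arsi of the sulfatase family (1.03 at ZT9.1), the secreted Crispld2 (0.89) and Ccdc80 (0.67), gamma-synuclein, Sncg (0.75), and the GDNF receptor gene Gfra1 (0.63). The call of Gfra1 was lost in 14 of 24 fits without 1 library. Without ZT20 replicates 1 and 2, neither Ccdc80 nor Gfra1 was called.

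**Figure D4:**
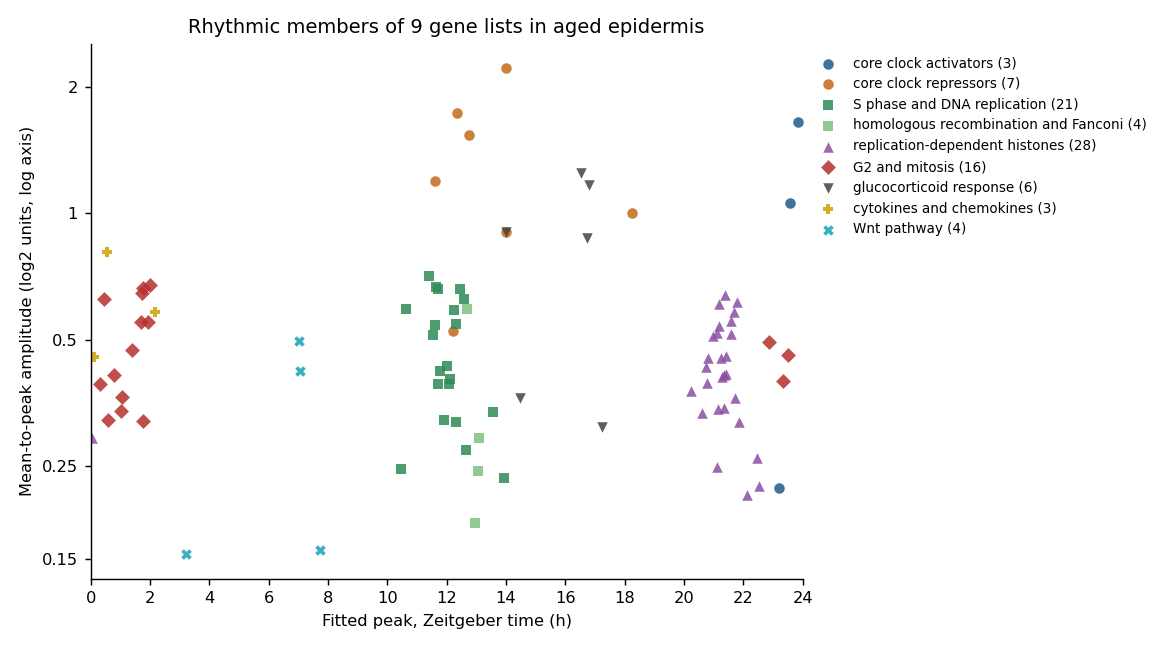
Fitted peak (x axis, Zeitgeber time in h) against mean-to-peak amplitude (y axis, log2 units on a log axis) for the called members of 9 gene lists in aged epidermis; the number called is in the legend and Per1 is in 2 lists. S phase genes lie at ZT10.5 to ZT13.9, glucocorticoid genes at ZT14.0 to ZT17.2, histones mostly at ZT20 to ZT22 and mitotic genes from ZT22.8 to ZT2.0.

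Single members of other groups were called too, where the share of all genes was 5.12%. Lonrf3 and Leo1, 2 of the 5 called of 17 known clock outputs (29.4%), had amplitudes of 0.57 at ZT19.9 and 0.43 at ZT23.9. The keratinocyte genes Tgm3, a crosslinking enzyme of the cornified envelope, and Krt2, a keratin of upper layers, peaked at ZT15.2 and ZT17.9 with 0.78 and 0.49, as 2 of 30 differentiation genes (6.67%). Krt2 lost its call without ZT16 replicate 4. The basal regulator Trp63 (0.18 at ZT21.4) was the 1 called of 16 basal genes (6.25%), and was lost without ZT20 replicate 2; without ZT4 replicate 3 the count was 2. The lysosomal regulator Tfeb peaked at ZT14.6 (0.34), the mitochondrial superoxide dismutase Sod2 at ZT15.5 (0.26), the amino acid transporter Slc7a5 at ZT16.1 (0.62) and the glycerolipid enzyme Gpam at ZT12.9 (0.34). Yap1, the gene of YAP, was not called, with an amplitude of 0.06 (SE 0.031; edgeR adjusted p = 0.552). It had 163, 155, 168 and 161 CPM at ZT0 and 147, 173, 172 and 165 CPM at ZT12. Of 20 YAP/TAZ target genes 2 were called (10%), Ajuba (0.22 at ZT5.3) and Amotl1 (0.15 at ZT1.4), which was lost without ZT0 replicate 1, 3 or 4. A test of any difference between the 6 times, which assumes no cosine, called 7 of these 20, against 7.86% of all genes tested. Of 22 Hippo genes 0 were called by edgeR, with 1 at an unadjusted p under 0.05. The edgeR cosine test called no member of the lists for cholesterol synthesis (24 tested), the immediate early response (26), interferon response (24) and MHC class I (13). It also called none for desmosomes (15), oxidative phosphorylation (30) and the proteasome (28). At an unadjusted p under 0.05 these lists had 1, 6, 4, 5, 1, 7 and 1 members (all genes tested: 18.1%). Single libraries moved some of these zeros: without ZT12 replicate 3 there were 3 oxidative phosphorylation, 1 proteasome and 1 interferon gene, and without ZT8 replicate 4 there was 1 of MHC class I. Immediate early genes reached at most 2, without ZT16 replicate 3. They also had calls without ZT4 replicate 2, ZT8 replicate 2 or 3, or ZT16 replicate 1. Oxidative phosphorylation had calls without ZT4 replicate 4 too. With all libraries, the test of any difference between times called 5 cholesterol synthesis, 2 interferon response and 1 immediate early genes. It called 0 in the other lists of this group.

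Keratinocyte markers were high in every library, as the epidermal label says, and markers of other cells varied between libraries. The summed level of 8 keratinocyte markers ran from 9540 to 15300 CPM. That of 6 fibroblast markers ran from 3.61 to 71.6 CPM, and of 5 Langerhans cell markers from 38.1 to 368 CPM; no defining marker of either was at 0 in every library. Mean Langerhans levels were 150, 94.7, 216, 206, 71.5 and 253 CPM from ZT0 to ZT20, and fibroblast means 6.15, 23.5, 13.8, 19.3, 31.6 and 9.06 CPM. With all libraries, the cosine test called no member of the fibroblast (16 tested), Langerhans cell (16), T cell (15) and macrophage (9) lists. The same held for the melanocyte (10), endothelial (7), muscle (6) and red blood cell (4) lists (all genes tested: 5.12%). Median amplitudes ran from 0.125 for the Langerhans list to 0.467 for the fibroblast and melanocyte lists, against 0.0964 over all genes tested. The test of any difference between times called 2 Langerhans cell genes and 1 each of the T cell, macrophage and endothelial lists, and none of the others. Without ZT4 replicate 3, the cosine test called 3 macrophage genes and 1 gene each of the fibroblast, T cell, melanocyte and muscle lists. The T cell list also had a call without ZT4 replicate 4, and the muscle list without ZT12 replicate 1 or 2 or ZT20 replicate 1 or 2. With the fibroblast, Langerhans and immediate early means as covariates 1531 genes were called; the part of these cells in single results was not tested.

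A test of any difference between the 6 times, which assumes no shape, called 1393 genes (7.86%), of which 658 were also called by the cosine. Departure from the cosine was called in 113 genes (0.638%), 13 of them rhythmic. Tef was the clearest (edgeR adjusted p = 0.00235). It had 105, 102, 109 and 115 CPM at ZT4 and 307, 334, 313 and 258 CPM at ZT8. At ZT20 it had 232, 218, 183 and 141 CPM. The fitted cosine also places ZT8 above ZT20, so that order alone is not the departure. Per2 and the glucose phosphate enzyme gene Pgm2l1 (edgeR adjusted p = 0.0196) departed too. Every one of the 24 libraries moved the count of departures by over 1.5 times when left out, from 1 (without ZT16 replicate 3 or ZT20 replicate 1) to 1358 (without ZT16 replicate 4). The count of genes with any difference between times was 760 without ZT20 replicate 1, 2332 without ZT16 replicate 4 and 880 to 903 without ZT0 replicate 1, 3 or 4 or ZT16 replicate 1.

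The cosine test called 907 genes in aged epidermis (5.12%), against 2434 of 17624 in adult epidermis (13.8%). Called in both were 517 genes, which is 57% of the aged and 21.2% of the adult calls. Among these the median amplitude was 0.323 in aged and 0.332 in adult, the peaks differed by a median of 0.932 h, and 434 lay within 2 h. Tested directly, a different rhythm was called in 0 of 18044 genes (0%) by edgeR, with 1326 (7.35%) at an unadjusted p under 0.05; DESeq2 called 25. Leaving out single libraries gave edgeR counts from 0 to 9, with any call in 8 of 48 such fits. No gene is thus shown by edgeR to be rhythmic in aged but not adult epidermis, although 390 passed in aged alone. The clock genes had amplitudes of 1.06 in aged and 1.05 in adult for Arntl, 2.22 and 2.25 for Per2, and 1.57 and 1.78 for Nr1d1, and no clock gene passed the test of the difference.

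Heat shock chaperones and unfolded protein response genes were the lists with the most members at an unadjusted p under 0.05 for the age difference. Of 24 heat shock chaperones 2 were called in aged, Dnaja4 (0.16 at ZT18.4) and Hspb8 (0.20 at ZT18.2), and 19 in adult. The amplitude was smaller in aged for 23, and 14 had an unadjusted p under 0.05 for the age difference (all genes tested: 7.35%). A smaller aged amplitude was not particular to chaperones. It was found in 58 of 60 histone genes and 24 of 25 G2 and mitosis genes, but in 4 of 31 S phase genes. Among the 517 genes called in both ages, 230 had a larger amplitude in aged. The share over all genes tested was not counted. Of those histone and mitotic genes 0 had an unadjusted p under 0.05 for the difference. Ahsa1, which activates HSP90, had an amplitude of 0.05 in aged and 0.32 in adult (edgeR adjusted p = 0.0839 for the difference). Hnrnpc, an RNA-binding protein, had 0.01 in aged and 0.25 in adult, with the same adjusted p of 0.0839 by edgeR. These were among the smallest of all genes, and both missed the threshold. Of 25 unfolded protein response genes the edgeR cosine test called 0 in aged and 13 in adult. At an unadjusted p under 0.05 there were 6 in aged (all genes tested: 18.1%) and 11 for the difference (all genes tested: 7.35%). ZT20 replicates 1 and 2 moved both lists. Without them 9 unfolded protein response genes and 4 heat shock chaperones were called in aged, and without all ZT20 libraries 4 and 0. Their heat shock means (centred log2 CPM) were -0.18 and -0.26, while ZT20 replicates 3 and 4 had 0.23 and 0.15; for the unfolded protein response, replicates 1 and 2 had -0.20 and -0.22 and replicates 3 and 4 had 0.14 and 0.16. With list means or surrogate variables as covariates 5 chaperones were called. Without ZT12 replicate 3 alone 1 unfolded protein response gene was called. For S phase genes the counts were 21 in aged and 19 in adult of 31, and for G2 and mitosis 16 in aged and 24 in adult of 25. For replication-dependent histones they were 28 in aged and 55 in adult of 60. The called S phase genes had a mean peak of ZT12.0 in aged, against ZT14.1 in adult; 2 members had an unadjusted p under 0.05 for the difference of rhythm and none passed after adjustment (smallest edgeR adjusted p = 0.432).

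**Figure D5:**
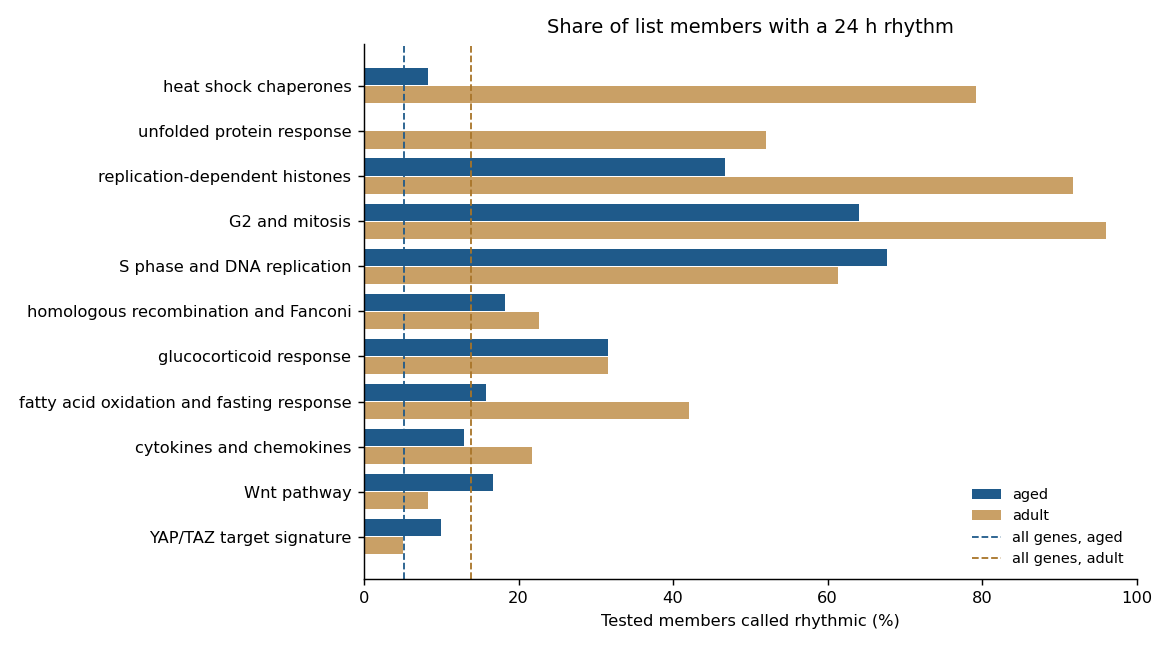
Percent of tested list members called rhythmic (x axis) in aged (upper, dark bars) and adult epidermis (lower, light bars) for 11 gene lists; dashed lines mark the share of all genes, 5.12% in aged and 13.8% in adult. Heat shock chaperones had 8.33% in aged and 79.2% in adult, and S phase genes 67.7% and 61.3%.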

How the data were processed

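Total RNA from epidermal cell suspensions was sequenced after removal of ribosomal RNA with a stranded kit, per the labels' protocols. The deposited values are raw counts of reads per gene, which the authors made with Trim Galore, STAR 2.7.10a and featureCounts on mm10 (GRCm38), per the submitters' processing notes; no source used here names the strand setting or annotation, so overlapping and antisense genes are uncertain. Symbols and coordinates come from RefSeq's GRCm38.p6 table, which matched 23476 of 24996 gene IDs; unmatched IDs (3.66% of counts) stayed in the fits.

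The 24 aged libraries were fitted alone in R 4.3.3 with edgeR 4.0.16 (TMM normalization, filterByExpr with a minimum count of 10, robust quasi-likelihood F test). Cosine and sine terms of a 24 h period were tested jointly, with p-values adjusted by Benjamini and Hochberg over all genes tested. A 6-time fit gave the test of any difference and of departure from the cosine. The adult libraries had the same fit, and a fit of all 48 tested the difference of rhythm between ages. CPM values are edgeR's counts relative to the TMM-scaled library size. The biological coefficient of variation was 19.5% in aged and 19% in adult libraries, and 21 residual degrees of freedom limit the precision.

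The members, the 61 gene lists and the tests were chosen with earlier results of these data known. Genes were named by rule: all clock list members, the 5 largest amplitudes of each window at a mean log2 CPM of at least 1 (predicted genes left out), up to 4 called members of every other list by p, the 5 smallest p of the age difference and of departure at that level, and Yap1; others are marked in the text. One clock gene is not reported here. Alternatives were DESeq2 1.42.0, limma 3.58.1, other scalings, filters and thresholds, left-out libraries and times, a replicate block, and covariates including surrogate variables from sva 3.50.0. The fits were tested on simulated data. The labels do not say whether replicate numbers pair libraries, and the main fits used no pairing. Of 60 same-number pairs, 18 had deviations correlated over 0.1. The mean correlation was -0.0404 for same-number pairs and 0.0141 for the others.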

Additional observations from a re-analysis of the deposited data

Results flagged for a closer look

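Among 306 groups of 4 libraries (51 named genes at 6 times), 13 had 1 library whose gap to the nearest of the others, divided by the group's range, was above Dixon's critical value; chance alone flags about 1 group in 20. In clock genes, Arntl at ZT20 had a ratio of 0.855, with replicate 4 at 71.0 CPM and the nearest library at 53.5. Npas2 at ZT4 also had 0.855 (replicate 3 at 8.39 CPM, nearest 12.4), and Per1 at ZT0 had 0.883 (replicate 2 at 85.1 CPM, nearest 44.8). Cry1 at ZT4 had 0.86 (replicate 4 at 11.5 CPM, nearest 9.39) and Cry1 at ZT16 0.929 (replicate 1 at 34.8 CPM, nearest 30.4). Cry2 at ZT4 had 0.885 (replicate 4 at 49.4 CPM, nearest 42.7), and Rorb at ZT20 0.878 (replicate 4 at 4.07 CPM, nearest 3.00). Tef at ZT12 had 0.869 (replicate 2 at 402 CPM, nearest 340), Hlf at ZT8 0.882 (replicate 2 at 117 CPM, nearest 79.1) and Nfil3 at ZT12 0.925 (replicate 1 at 13 CPM, nearest 5.84).

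Of the other genes, Sncg at ZT8 had 0.853 (replicate 4 at 3.58 CPM, nearest 3.90), Ccdc80 at ZT20 0.833 (replicate 3 at 1.65 CPM, nearest 0.858) and Kbtbd11 at ZT0 0.935 (replicate 3 at 4.59 CPM, nearest 2.31).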

How the results depend on the processing

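No called named gene had its peak moved by over 6 h under any alternative; uncalled Hnrnpc, Bpifc and Entrez100861767 moved by up to 10, 11.5 and 7.58 h. Of 106 called named genes 86 kept their call in all 24 fits without 1 aged library, and 38 kept it under every alternative. Named genes here are all those picked by rule, and some of them, such as Pik3r1, Prdx6 and Egfr, are not described above. The 907 rhythmic genes became 313 at an adjusted p under 0.01, 493 with an amplitude of at least 0.25, 1427 with DESeq2, 254 without ZT0, 446 without ZT8, 1531 with list means as covariates and 2318 with 2 surrogate variables. The 176 of the ZT12 window became 87, 115, 51 without ZT0, 98 without ZT8, 88 without ZT12, 342 with list means and 447 with surrogate variables; without 1 library they ran from 134 to 196. The 112 called list genes became 62 at 0.01, 43 without ZT0, 74 without ZT8 and 220 with surrogate variables (93 to 126 without 1 library). The 1393 genes that differed between times became 372 at 0.01, 3179 with DESeq2, 497 without ZT0, 786 without ZT8, 799 without ZT20 and 2651 with surrogate variables (760 to 2332 without 1 library). The 113 departures became 1 at 0.01, 1456 with DESeq2, 253 with limma, 38 with no filter, 286 with a stricter filter, 6 with list means and 23 with surrogate variables; they were 0 without ZT20 replicates 1 and 2, and 21, 6, 0, 643, 10 and 0 without ZT0, ZT4, ZT8, ZT12, ZT16 and ZT20 (1 to 1358 without 1 library). The 0 age differences became 25 with DESeq2, 3, 1 and 3 without ZT4, ZT12 and ZT20, 14 with a 12 h cosine beside, 5 with list means and 11 with surrogate variables (0 to 9 without 1 library). The 2434 adult calls became 920 at 0.01, 1011 with the amplitude minimum, 1451 without ZT8, 1371 without ZT16 and 4538 with surrogate variables (1863 to 2727 without 1 library). For the promoters of the ZT12 window, CANNTG gave 70.1% in place of 17.3% with CACGTG, beside 69.5% of all promoters. The cause of these changes was not tested.

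The replicate number as a block gave 667 rhythmic genes, 830 that differed between times and 13 departures. The labels do not say what same-numbered libraries shared. Of 24 libraries, 5 correlated best with one of their own number, which does not settle whether they shared a batch. With 4 libraries per time, depths of 40761084 to 48785385 counts and a biological coefficient of variation of 19.5% limit which small amplitudes pass, and 3202 genes had an unadjusted p under 0.05.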

Other observations

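ZT20 replicates 1 and 2 stood apart from replicates 3 and 4 in gene groups beyond the glucocorticoid list. For fatty acid oxidation and fasting genes, their list means (centred log2 CPM over tested members) were 0.57 and 0.67, while replicates 3 and 4 had -0.09 and -0.13. For insulin, mTOR and FOXO genes, replicates 1 and 2 had 0.44 and 0.53, and replicates 3 and 4 had 0.06 and -0.06. For cholesterol synthesis genes, replicates 1 and 2 had -0.65 and -0.53, and replicates 3 and 4 had 0.03 and 0.01. Core clock activators had 0.44, 0.41, 0.20 and 0.62 in replicates 1 to 4 at that time, without such a split.

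Anagen hair shaft and inner root sheath genes had the widest spread between libraries of these lists, with list means from -2.32 in ZT0 replicate 3 to 3.36 in ZT4 replicate 3. Dermal fibroblast genes were also highest in ZT4 replicate 3 and ZT16 replicate 2, at 1.60 and 1.62. The part of these libraries in single results was tested only by leaving each out.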
